A study of Mus musculus with 32 samples.

Results

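The mRNAs described here encode the proteins of the mitochondrial ribosome and were followed through 32 polyadenylated RNA libraries from mouse brain. They were taken by name, as every gene of the deposited exon count table whose symbol is Mrpl or Mrps followed by a number and at most 1 letter. This gave 78 of the 24411 genes. By current knowledge of the mammalian ribosome 51 of them belong to the large subunit, Mrps18a and Mrps30 included despite their names, and 26 to the small subunit. The last, Mrps36, is now known as a component of the alpha-ketoglutarate dehydrogenase complex.

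All mice were of C57BL/6 background, carried the RPL22-HA allele (RiboTag) and belonged to the Sall1-CreER or the Cx3cr1-CreER line. Mice aged 4 to 6 weeks were given 4 gavages of 5 mg tamoxifen on alternate days. In these mice an inducible Cre recombinase, under control of the gene that names the line, switches on a haemagglutinin (HA) tag on the cytosolic ribosomal protein RPL22, so that RNA on tagged cytosolic ribosomes can be precipitated. Cx3cr1 encodes the fractalkine receptor of microglia and other brain macrophages, and Sall1 a transcription factor that microglia make. The tag sits on cytosolic ribosomes, so the precipitates hold mRNAs of mitochondrial ribosomal proteins while these are being made in the cytosol, not mitochondrial ribosomes. The brain of each of the 4 mice per line gave 4 libraries, hence 8 groups of 4. HA is the anti-HA precipitate taken directly from brain homogenate, SortIP the anti-HA precipitate of sorted microglia, Sort the RNA of sorted microglia without precipitation, and IgG the precipitate of homogenate with a mouse IgG1 control antibody. Homogenates were made in cycloheximide, whereas sorted cells had passed through digestion with enzymes, density separation on Percoll and flow cytometry. For the 8 sorted Cx3cr1 libraries the title and antibody label name one fraction and the description, which is also the column name, names the other. The titles decide the grouping below, with the names titled SortIP and titled Sort for these libraries.

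Mitochondria keep a translation machinery of their own, which makes the few respiratory chain proteins that mitochondrial DNA encodes. Its ribosome is built from mitochondrially transcribed rRNA and from proteins that are all encoded in the nucleus, made on cytosolic ribosomes and imported. Part of these proteins descend from those of the bacterial ancestor and the rest were added in mitochondria. Of the 78 genes, 48 are of the first kind and 28 of the second by the lists used here, and Mrpl58 and Mrps36 were in neither list. Most of the mRNAs are short. Their median exon length was 1045 bases (quartiles 766 and 1547, range 403 for Mrps21 to 6707 for Mrpl17), against a median of 2107 bases over all 24411 genes.

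The promoters of 4 members are shown because 3 of them, Mrps18a, Mrps18b and Mrps18c, encode paralogs of a single bacterial protein and were not called in one direction in the precipitates, and because Mrpl30 had the highest fold change of all members in the Sall1 line. The sequences are those of RefSeq, 250 bases before to 50 after the annotated start, in the build GRCm38.p6. Capitals mark the core of the site bound by GABPA, an ETS factor known for nuclear genes of mitochondrial proteins (CCGGAAG, or CTTCCGG on the other strand), and the core of the YY1 site (AAGATGGC, or GCCATCTT).
Mrps18a, chr17:46110754-46111053, plus strand: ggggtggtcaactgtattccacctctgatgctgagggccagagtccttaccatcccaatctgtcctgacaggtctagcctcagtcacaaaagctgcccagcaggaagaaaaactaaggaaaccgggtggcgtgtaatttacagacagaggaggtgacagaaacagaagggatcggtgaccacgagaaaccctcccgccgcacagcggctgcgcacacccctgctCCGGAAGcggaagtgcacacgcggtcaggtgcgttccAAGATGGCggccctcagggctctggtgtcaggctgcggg
Mrps18b, chr17:35916391-35916690, minus strand: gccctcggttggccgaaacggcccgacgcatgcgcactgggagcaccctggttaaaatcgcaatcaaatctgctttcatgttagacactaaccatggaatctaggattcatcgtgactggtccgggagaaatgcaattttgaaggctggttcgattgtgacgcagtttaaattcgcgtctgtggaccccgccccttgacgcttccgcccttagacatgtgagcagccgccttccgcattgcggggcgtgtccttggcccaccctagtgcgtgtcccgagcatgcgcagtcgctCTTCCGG
Mrps18c, chr5:100798509-100798808, plus strand: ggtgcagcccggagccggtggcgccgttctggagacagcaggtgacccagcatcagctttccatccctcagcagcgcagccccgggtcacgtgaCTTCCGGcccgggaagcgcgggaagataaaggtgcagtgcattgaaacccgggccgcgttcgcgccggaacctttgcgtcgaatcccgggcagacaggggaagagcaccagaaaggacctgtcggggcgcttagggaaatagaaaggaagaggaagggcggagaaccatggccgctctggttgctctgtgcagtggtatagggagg
Mrpl30, chr1:37890227-37890526, plus strand: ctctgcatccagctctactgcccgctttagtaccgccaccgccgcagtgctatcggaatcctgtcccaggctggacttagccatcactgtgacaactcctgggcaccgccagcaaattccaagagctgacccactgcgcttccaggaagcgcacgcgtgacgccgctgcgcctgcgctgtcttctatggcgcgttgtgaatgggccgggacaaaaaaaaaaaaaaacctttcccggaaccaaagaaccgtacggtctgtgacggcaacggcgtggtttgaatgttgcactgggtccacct
The Mrps18a promoter held both cores, those of Mrps18b and Mrps18c held the GABPA core, and that of Mrpl30 held neither. RefSeq promoters were matched to 69 of the 78 members, some with more than 1 start, which gave 75 promoters. The GABPA core stood in 26 of the 75 (34.7%), against 2910 of all 32851 promoters in the table (8.86%). The YY1 core stood in 12 (16.0%, against 2.75% of all promoters) and the palindromic NRF1 site (GCGCA followed by TGCGC) in 3 (4.0%, against 0.971%). A GABPA core that runs into a YY1 core would share the letters AAG with it, which is not the case in the promoter of Mrps18a, and a match says only that the letters are present. Members with and without the GABPA core are set side by side with the results below.

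The Sall1 HA libraries held 1894943 to 3027342 gene counts, the Sall1 IgG libraries 704183 to 4047465, the Cx3cr1 HA libraries 286418 to 574671 and the Cx3cr1 IgG libraries 2200897 to 2470411. The 16 sorted libraries held 249881 to 1808789. Markers of microglia (9 genes) summed to 0.404% of gene counts in Sall1 HA (0.352 to 0.464%), against 0.0736% in Sall1 IgG, and to 6.28% in Cx3cr1 HA (5.88 to 6.72%), against 0.0930% in Cx3cr1 IgG. In the sorted groups they summed to 6.07% in Sall1 SortIP, 4.58% in Sall1 Sort, 4.57% in titled SortIP and 6.07% in titled Sort. Markers of other cells were present too. Those of astrocytes (6 genes) made 0.623% of Sall1 HA counts and 0.0584% of Cx3cr1 HA counts, and those of oligodendrocytes (5 genes) 0.979% and 0.176%. Their sums in IgG are not given here, so they are not read as enriched or depleted against IgG. The sums of markers of neurons, endothelium and border macrophages are not given either. Of the markers of microglia, border macrophages, neurons, astrocytes, oligodendrocytes and endothelium, Lyve1 alone, a border macrophage gene, was at 0 in all libraries of a group, in Sall1 HA and in Sall1 SortIP. In bulk libraries such as these, fewer cells of a type and less RNA per cell cannot be told apart.

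Together the 78 mRNAs made 0.953 ± 0.0376% of gene counts in Sall1 HA (SD, n = 4 mice, as in all means below), against 0.504 ± 0.0282% in Sall1 IgG. They made 0.566 ± 0.0356% in Cx3cr1 HA, against 0.480 ± 0.0161% in Cx3cr1 IgG. The sorted groups lay close together, at 0.400 ± 0.0208% in Sall1 SortIP, 0.410 ± 0.0194% in Sall1 Sort, 0.404 ± 0.0249% in titled SortIP and 0.405 ± 0.0136% in titled Sort. The 4 Sall1 HA libraries, at 0.913 to 0.9997%, stood above all the other 28, and the 4 Cx3cr1 HA libraries, at 0.533 to 0.616%, stood above their IgG libraries (0.458 to 0.493%). Large subunit mRNAs made 0.696 ± 0.0376% of Sall1 HA and 0.351 ± 0.0283% of Sall1 IgG, and small subunit mRNAs 0.256 ± 0.00435% and 0.153 ± 0.00818%. In the Cx3cr1 line large subunit mRNAs made 0.421 ± 0.0274% of HA and 0.337 ± 0.00495% of IgG, whereas small subunit mRNAs made 0.145 ± 0.0100% and 0.143 ± 0.0114% and overlapped between these groups.

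**Figure D1:**
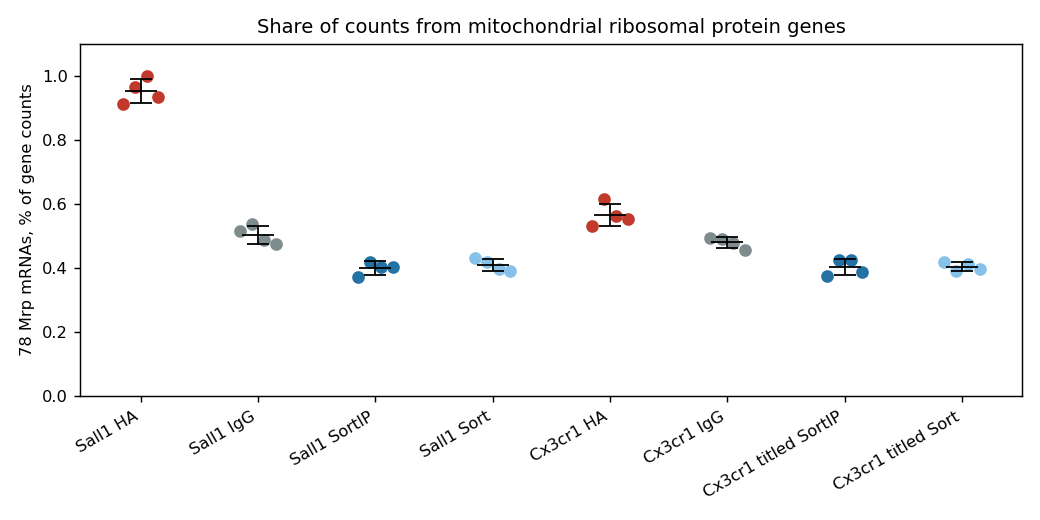
Percent of gene counts taken by the 78 mRNAs of mitochondrial ribosomal proteins in each of 32 libraries (dots), with the mean and SD of each group of 4 (bars). The Sall1 HA libraries lie between 0.913 and 0.9997%, above all others, and the 4 sorted groups average 0.400 to 0.410%.

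Per length the members differed more from one another than between groups. Counts per 1e6 gene counts are called CPM below. On the scale of CPM per 1000 bases of exon (RPKM), the median member stood at 66.5 in Sall1 HA (quartiles 23.9 and 193), against 49.1 in Sall1 IgG, and at 44.5 in Cx3cr1 HA, against 44.6 in Cx3cr1 IgG. In the sorted groups the median member stood at 37.1 to 41.5. The highest member was Mrpl52, a large subunit protein without a bacterial homolog, in both HA and all 4 sorted groups. It reached 852 ± 134 RPKM in Sall1 HA, against 262 ± 49.0 in Sall1 IgG, 647 ± 157 in Cx3cr1 HA, against 240.3 ± 38.9 in Cx3cr1 IgG, and between 588 and 674 on average in sorted cells. In both IgG groups the highest was Mrps12, a protein of the decoding centre. The order of the members was similar throughout, with rank correlations of 0.856 to 0.994 over the 28 pairs of groups and 78 members. These share the genes' lengths and, within a line, the mice, and are given as a description. Per member, in CPM, the highest group mean was that of Sall1 HA for 50 members and that of Cx3cr1 HA for 0, while Cx3cr1 HA had the lowest mean for 20 and Sall1 HA for 2.

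**Figure D2:**
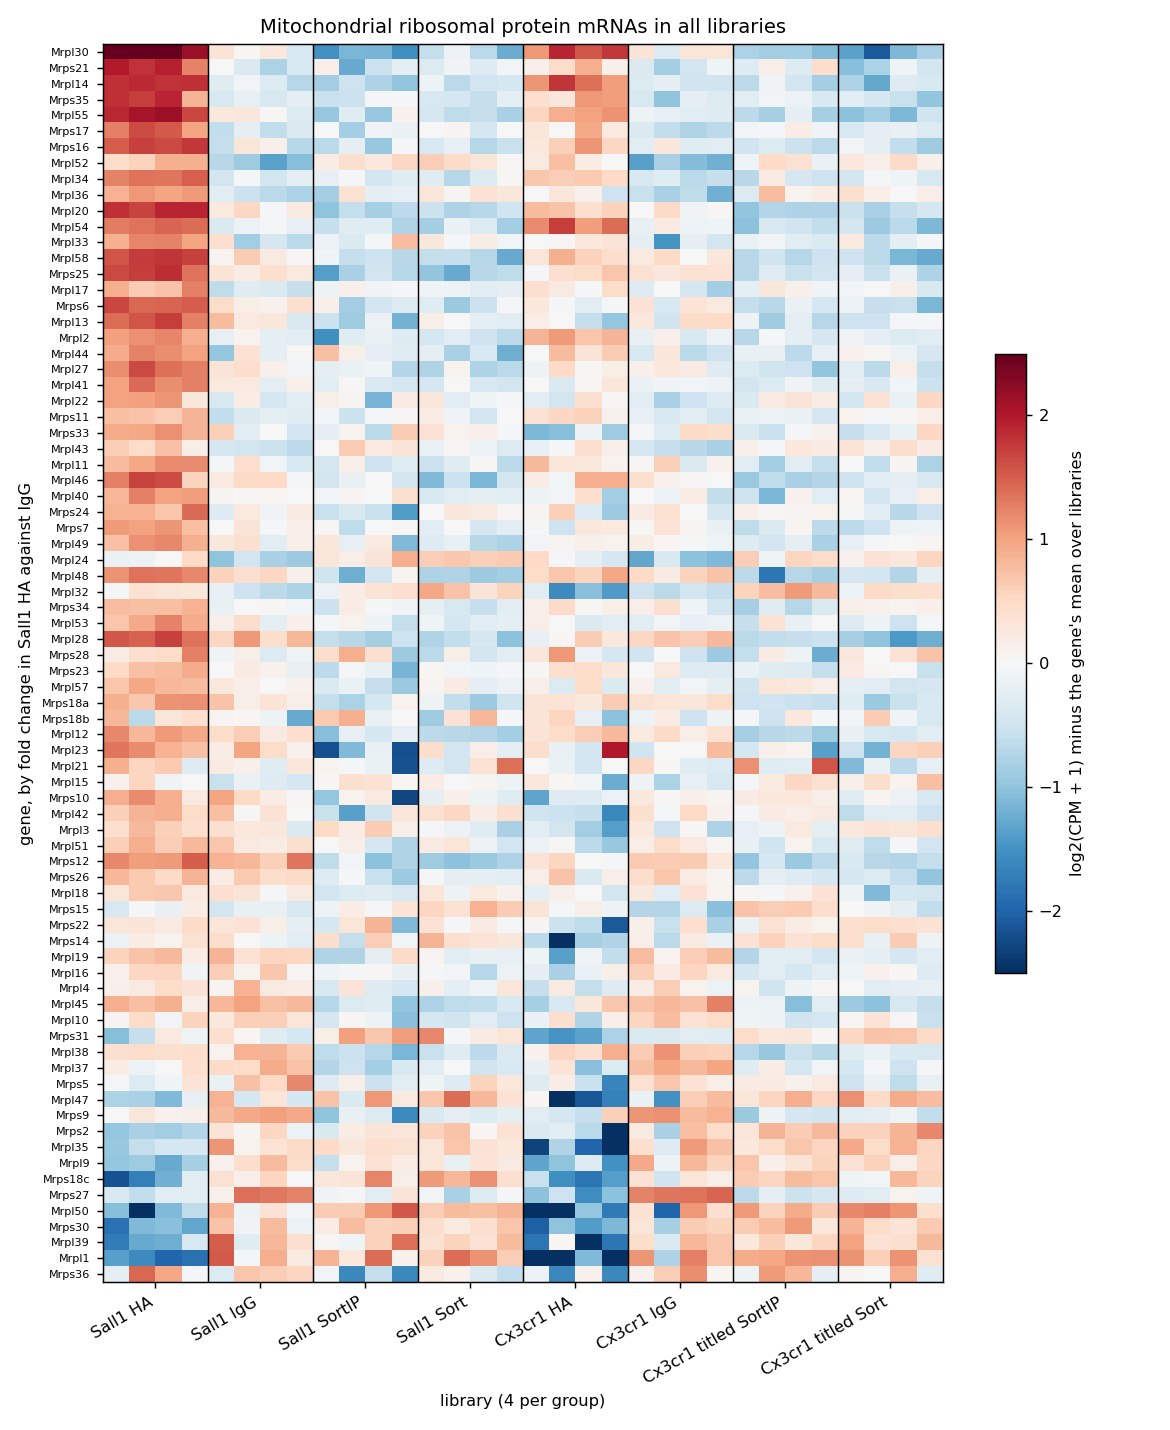
Each of the 78 mRNAs (lines, ordered by fold change in Sall1 HA against IgG, with Mrps36, not tested, last) in 32 libraries (columns, 4 per group). The colour is log2(CPM + 1) minus the gene's mean over all libraries. Most genes are red in the 4 Sall1 HA libraries, a shorter run from Mrpl30 down is red in Cx3cr1 HA, and a group at the bottom that includes Mrpl1, Mrpl39, Mrps30 and Mrps18c is blue in both HA groups.

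In Sall1 HA against Sall1 IgG most members were enriched. Of 77 tested, 58 rose and 10 fell (edgeR quasi-likelihood test, Benjamini-Hochberg adjusted p under 0.05 over all genes), with a median log2 fold change of 1.17 (quartiles 0.43 and 1.58). Over all 11545 genes tested, 71.3% were called, 35.2% higher and 36.1% lower, with a median of -0.03. The 3 members with the smallest adjusted p were all of the large subunit.

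Mrpl14, a protein at the face of the large subunit that meets the small one, had, in Sall1 HA, 396.3, 409.1, 395.7 and 398.7 CPM, against 90.9, 106.0, 87.7 and 67.4 CPM in Sall1 IgG. The HA libraries were nearly equal and lay far above all IgG libraries, with a log2 fold change of 2.59 ± 0.16 (SE, adjusted p = 2.89e-10). Mrpl30 had, in Sall1 HA, 554.1, 541.5, 589.4 and 423.5 CPM, against 119.3, 97.3, 112.8 and 70.8 CPM in Sall1 IgG, and Mrpl55 had 304.5, 345.7, 362.4 and 262.9 CPM, against 98.0, 98.8, 83.0 and 64.6 CPM. Neither pair of groups overlapped, and the log2 fold changes were 2.81 ± 0.19 for Mrpl30 and 2.30 ± 0.17 for Mrpl55 (adjusted p = 6.49e-10 and 2.76e-09). Among small subunit members the 2 highest were Mrps21, a homolog of a bacterial protein, at 2.65 ± 0.22 and Mrps35, a mitochondrial addition, at 2.37 ± 0.21. Of those that fell, Mrpl1, a protein of the mobile stalk at the exit for tRNA, had the smallest adjusted p (6.53e-05). It had 3.69, 3.00, 2.06 and 2.31 CPM in Sall1 HA, from 5 to 7 counts per library, against 34.1, 10.9, 21.7 and 13.0 CPM in Sall1 IgG. All HA libraries were below all IgG libraries and the log2 fold change was -2.35 ± 0.41.

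Both subunits and both origins took part. Of the large subunit 38 of 51 tested members rose and 6 fell (median 1.24), and of the small subunit 20 of 26 rose and 4 fell (median 1.06). Among members with a bacterial homolog 37 of 48 rose and 6 fell, and among mitochondrial additions 20 of 28 rose and 4 fell. With the GABPA core in a matched promoter 24 of 26 rose and 2 fell (median log2 fold change 1.18, median length 929 bases), and without it 27 of 42 rose and 8 fell (1.09, 1154 bases).

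In Cx3cr1 HA against Cx3cr1 IgG fewer members were enriched. Of 73 tested, 32 rose and 7 fell, with a median log2 fold change of 0.44 (quartiles -0.24 and 1.09), while over all 10021 genes tested 64.5% were called, 28.6% higher and 36% lower, with a median of -0.28. Without any scaling beyond the library size the counts became 20 higher and 18 lower and the median 0.02. That choice moved the median of all genes to -0.70 in this comparison and to -0.44 in Sall1 HA against IgG. In the latter 44 members stayed called higher and 13 were called lower, of which 10 were also called lower with scaling. Without Cx3cr1 IgG replicate 2 the number of members called lower was 11. The HA libraries of this line held fewer counts than those of the Sall1 line, and the part of depth in the number of calls was not tested.

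Mrpl14 again had the smallest adjusted p (2.05e-07). It had 240.1, 388.5, 293.7 and 230.4 CPM in Cx3cr1 HA, against 87.7, 95.1, 78.9 and 79.0 CPM in Cx3cr1 IgG, with no overlap and a log2 fold change of 2.16 ± 0.21. Mrpl54, a mitochondrial addition to the large subunit, had 201.9, 293.7, 183.5 and 233.9 CPM, against 78.1, 104.0, 80.7 and 81.6 CPM. Mrpl52 had 245.4, 354.9, 238.6 and 209.5 CPM, against 81.8, 118.6, 98.7 and 90.3 CPM. All 8 HA values of these 2 mRNAs lay above their IgG values, and the log2 fold changes were 1.80 ± 0.21 and 1.83 ± 0.21 (adjusted p = 1.56e-06 and 1.98e-06). The strongest call in the other direction was Mrps27, an RNA-binding pentatricopeptide repeat protein of the small subunit. It had 10.4, 15.3, 6.88 and 10.5 CPM in Cx3cr1 HA, against 53.6, 57.5, 58.8 and 62.5 CPM in Cx3cr1 IgG, which is a log2 fold change of -2.05 ± 0.31 (adjusted p = 3.29e-05). Its level in sorted microglia was also low, 12.3 to 28.0 CPM over the 16 libraries. Of the large subunit 23 of 47 tested members rose and 5 fell (median 0.48), and of the small subunit 9 of 26 rose and 2 fell (median 0.28). With the GABPA core 13 of 25 rose and 1 fell (median log2 fold change 0.55, median length 904 bases), and without it 15 of 39 rose and 6 fell (0.31, 1118 bases).

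Taken gene by gene, 32 members rose in both lines and 6 fell in both, which were Mrpl9, Mrpl35, Mrpl39, Mrps9, Mrps27 and Mrps30. Another 24 rose in Sall1 HA and were not called in Cx3cr1 HA, 2 fell in Sall1 HA and were not called in Cx3cr1 HA, 1 was not called in Sall1 HA and fell in Cx3cr1 HA, 8 were called in neither, and 0 were called in opposite directions. The 2 lines share no library in these comparisons. Over all genes tested, 35.2% were called higher and 36.1% lower in Sall1 HA, and 28.6% and 36% in Cx3cr1 HA. The share of all genes called alike in both lines is not given here, so the agreement is not read as particular to the members. Whether the lines differ was tested directly, as described further on.

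Members with known roles at functional sites did not all move. Of the stalk that binds translation factors, Mrpl11 had 102.9 to 136.6 CPM in Sall1 HA, against 44.7 to 79.8 CPM in Sall1 IgG (log2 fold change 1.44 ± 0.18, adjusted p = 1.35e-06), and Mrpl12 had 206.9 to 268.6 CPM, against 135.2 to 177.6 CPM (1.00 ± 0.15, adjusted p = 1.29e-05). Mrpl10, which joins them in the stalk base, had 55.9 to 87.2 CPM in Sall1 HA and 71.0 to 89.9 CPM in Sall1 IgG, which overlapped (0.22 ± 0.18, adjusted p = 0.273). Its mean CPM, which lacks the scaling used in the test, was lower in Sall1 HA (71.7) than in Sall1 IgG (80.8). In the Cx3cr1 line the log2 fold changes were 0.68 ± 0.25 for Mrpl11, 0.65 ± 0.18 for Mrpl12 and -0.20 ± 0.25 for Mrpl10 (adjusted p = 0.0257, 0.00567 and 0.507). The call of Mrpl11 there was lost without any one of Cx3cr1 HA replicates 1 and 2 and IgG replicates 1, 3 and 4, with adjusted p of 0.0552 to 0.163. Mrps12 in the decoding centre rose in the Sall1 line (237.3 to 331.3 CPM in HA, against 173.0 to 292.3 CPM in IgG; 0.70 ± 0.18, adjusted p = 0.00216) although its groups overlapped, and it was not called in the Cx3cr1 line (0.07 ± 0.20, adjusted p = 0.751). Mrpl44, a large subunit protein with a ribonuclease III fold, rose in both lines, by 1.58 ± 0.20 and by 1.14 ± 0.29 on the log2 scale (adjusted p = 1.94e-06 and 0.00300).

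The 3 paralogs whose promoters are shown above were not called in one direction. Mrps18a, whose protein sits in the large subunit, had, in Sall1 HA, 214.8, 185.1, 253.8 and 258.6 CPM, against 191.7, 128.2, 147.2 and 128.0 CPM in Sall1 IgG, and rose by 1.03 ± 0.18 on the log2 scale (adjusted p = 4.87e-05) with 1 IgG library inside the HA range. Mrps18c, of the small subunit, had 1.58, 2.57, 4.11 and 8.59 CPM, against 14.2, 11.9, 16.1 and 10.8 CPM, and fell by 1.15 ± 0.40 (adjusted p = 0.0151) with no overlap. Without Sall1 HA replicate 21, its highest, that fold change was -1.79, and without Sall1 IgG replicate 17 the call was lost (adjusted p = 0.0515). Mrps18b, also of the small subunit, was low throughout, at 4.71 to 15.3 CPM in Sall1 HA and 2.83 to 8.52 CPM in Sall1 IgG. Its call (1.01 ± 0.38, adjusted p = 0.0238) was lost without Sall1 HA replicate 7 or 21 or IgG replicate 21 (adjusted p = 0.103, 0.0520 and 0.0877). In the Cx3cr1 line the log2 fold changes were 0.43 ± 0.18 for Mrps18a, 0.61 ± 0.44 for Mrps18b and -1.04 ± 0.51 for Mrps18c (adjusted p = 0.0447, 0.227 and 0.0838). The Mrps18a call there was lost without any one of Cx3cr1 HA replicates 1, 2 and 4 and IgG replicates 1, 3 and 4. Its mean was 153.2 CPM in Cx3cr1 HA, against 149.6 CPM in Cx3cr1 IgG, which lacks the scaling used in the test. Mrps30, the other large subunit protein named for the small one, had 7.92 to 14.8 CPM in Sall1 HA, against 28.3 to 55.2 CPM in Sall1 IgG. In the Cx3cr1 line it had 6.96 to 15.3 CPM in HA, against 17.4 to 49.8 CPM in IgG. It fell in both lines, by 1.32 ± 0.28 and 1.35 ± 0.43 (adjusted p = 0.000433 and 0.0119), the second call being lost without Cx3cr1 HA replicate 1 (adjusted p = 0.0588).

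The fold changes followed the length of the mRNA. Over the members, the rank correlation of fold change with exon length was -0.488 in Sall1 HA against IgG (77 genes) and -0.460 in Cx3cr1 HA against IgG (73 genes), and over all genes tested it was -0.527 and -0.368. These are correlations across genes of the same libraries and are given as a description. Among members of at least 500 and under 1000 bases 28 of 29 rose in Sall1 HA and 0 fell, while 78.4% of all tested genes of that length rose. Of such members 17 of 27 rose in Cx3cr1 HA (63.0%), where 55.3% of all genes of that length did. At lengths from 1000 to under 2000 bases 20 of 32 members rose and 5 fell in Sall1 HA (56.4% of all genes rose), and in Cx3cr1 HA 8 of 32 rose and 6 fell (40.4% of all genes rose). The 4 members of 4000 bases and over, Mrpl17 and Mrps25 among them, all rose in Sall1 HA, where 12.3% of genes of that length did, but in Cx3cr1 HA 1 of the 4 rose, where 15.5% did. From 2000 to under 4000 bases 3 of 8 members rose and 4 fell in Sall1 HA (median -0.22). Of all genes of that length 33.5% rose there (median -0.004), so the number that rose was near that share. In Cx3cr1 HA 3 of 6 such members rose and 1 fell, where 27.2% of all genes of that length rose. Under 500 bases 3 of 4 members rose in Sall1 HA, where 69.6% of all genes of that length rose, and 1 fell. The one that fell was Mrps18c, at 494 bases. In Cx3cr1 HA 3 of these 4 rose and 0 fell, where 59.1% of all genes of that length rose, and Mrps18c was not called.

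**Figure D3:**
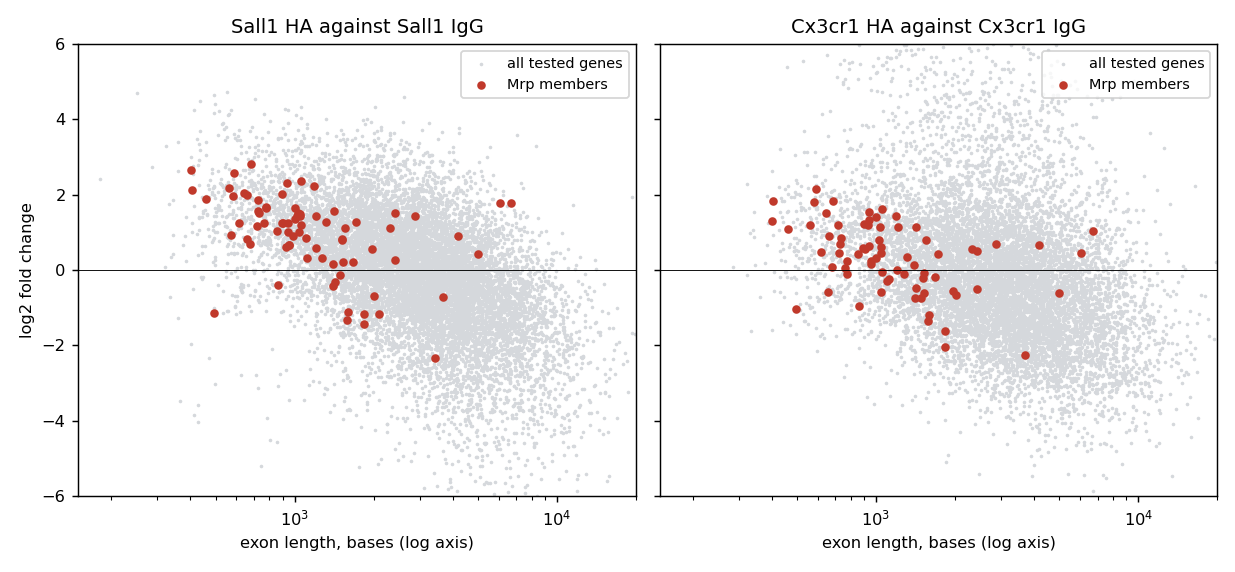
Log2 fold change of HA against IgG (vertical) by exon length in bases (log axis) in the Sall1 line (left) and the Cx3cr1 line (right), for all tested genes in grey and the members in red. Values fall with length in both panels, and the members, with a median length of 1045 bases, lie mainly in the region where other genes of their length are also above 0.

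When the trend of counts with length was taken out of each library, with the mouse as a block, the numbers of members called higher and lower came close to each other. In Sall1 HA against IgG 26 were then higher and 20 lower (median 0.13), and in Cx3cr1 HA against IgG 19 were higher and 18 lower (median -0.09), with medians of all genes of -0.00 and -0.06. The shares of all genes called under this correction are not given here or further on. The corrected counts are therefore not read as more or fewer calls than among other genes. Of the 58 members called higher in the Sall1 line 26 kept the call, and 5 members changed to a call in the opposite direction. Mrps12 was 1 of them, at -0.70 (adjusted p = 0.000315), and in the Cx3cr1 line its value was -0.74 (adjusted p = 0.00213). The values given above are those without this correction. Whether length itself, or another property that goes with length, gives the pattern was not tested.

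The enrichment was larger in the Sall1 line. In the direct test of the difference, as an interaction over the 16 homogenate libraries, 27 of 77 members had a higher HA enrichment in the Sall1 line and 0 a lower one (edgeR, where 37 and 1 had an unadjusted p under 0.05, and DESeq2 called 1 lower). Over all 12308 genes 32.2% were called, 18.5% higher and 13.7% lower. The median difference was 0.64 on the log2 scale (quartiles 0.31 and 0.95, all genes 0.15), and 69 of the 77 were positive. With all 8 groups in one fit 48 members were called higher, and with the length correction and the mouse as a block 6 were higher and 1 lower. Of the large subunit 17 of 51 and of the small subunit 10 of 26 were higher.

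The 3 members with the smallest adjusted p were Mrps25, Mrps6 and Mrpl28. Mrps25, a mitochondrial addition to the small subunit, had, in Sall1 HA, 211.1, 221.9, 239.4 and 171.8 CPM, against 75.4 to 88.7 CPM in Sall1 IgG. In the Cx3cr1 line it had 64.4, 88.7, 91.8 and 108.2 CPM in HA, against 80.1 to 86.3 CPM in IgG, which overlapped. The difference in log2 enrichment was 1.29 ± 0.25 (adjusted p = 0.000215). Mrps6, of the small subunit platform, had 137.5 to 162.0 CPM in Sall1 HA, against 54.2 to 69.6 CPM in Sall1 IgG, and 41.3 to 60.9 CPM in Cx3cr1 HA, against 38.1 to 65.0 CPM in Cx3cr1 IgG (difference 1.38 ± 0.28, adjusted p = 0.000449). Mrpl28, of the large subunit, had 209.1 to 266.1 CPM in Sall1 HA, against 110.1 to 173.7 CPM in Sall1 IgG, and 69.6 to 126.2 CPM in Cx3cr1 HA, against 115.9 to 142.8 CPM in Cx3cr1 IgG (difference 1.22 ± 0.26, adjusted p = 0.000633). All 3 were separated from IgG in the Sall1 line and overlapped with it in the Cx3cr1 line. They were chosen by the test of the difference on these same libraries, so this pattern is a description and adds no support. The share of all genes with this pattern is not given here.

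**Figure D4:**
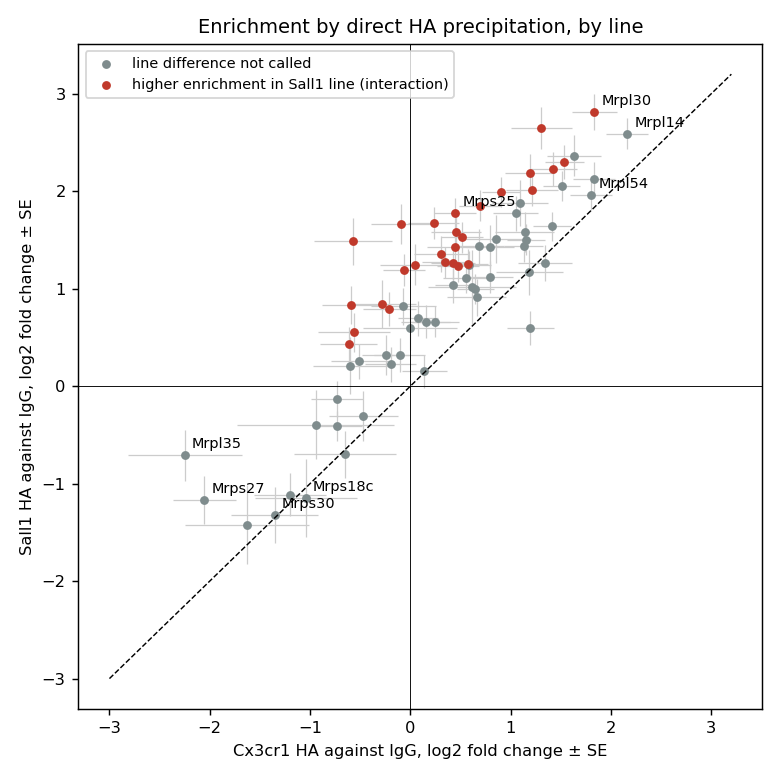
Log2 fold change of HA against IgG in the Sall1 line (vertical) and the Cx3cr1 line (horizontal), with SE bars, for the 73 members tested in both lines and shown with the dashed line of equality. Members with a called difference between lines (red, all 27) lie above the line, and Mrpl35, Mrps27, Mrps30 and Mrps18c lie below 0 on both axes.

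Set directly against each other, Sall1 HA exceeded Cx3cr1 HA in 35 of 70 members and was lower in 0 (unadjusted p under 0.05 for 41 and 0, and 34 and 0 by DESeq2). The background was 52.9% of 9092 genes, 27.2% higher and 25.7% lower, and the members' median was 0.60 (all genes 0.05). This comparison uses the HA libraries of the interaction above and is not independent of it. Mrpl13 had, in Sall1 HA, 148.8, 167.1, 186.7 and 134.4 CPM, against 62.6, 55.1, 36.7 and 27.9 CPM in Cx3cr1 HA. These groups were far apart, at 1.56 ± 0.22 (adjusted p = 1.78e-06). Mrpl20 had 414.3 to 479.2 CPM, against 167.5 to 219.3 CPM (1.03 ± 0.16, adjusted p = 8.19e-06), and Mrps6 differed by 1.34 ± 0.20 (adjusted p = 3.76e-06). Mrpl13 and Mrpl20 encode homologs of bacterial large subunit proteins. With the length correction 22 members were higher and 5 lower. The IgG groups of the lines did not separate any member. Of 75 tested, 0 were called (edgeR, 0 also at an unadjusted p under 0.05 and 0 by DESeq2), where 0.00863% of 11593 genes were. Markers of astrocytes and oligodendrocytes moved with this contrast, at 0.493 to 0.780% of counts for astrocytes in Sall1 HA, against 0.0457 to 0.0752% in Cx3cr1 HA, and microglial markers moved the other way. The sums of the other marker lists are not given for this contrast. The part of cell type markers in the members' result was not tested.

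Compared with the libraries titled as sorted precipitates, the direct precipitates were again richer in these mRNAs. In Sall1 HA against Sall1 SortIP 53 of 75 members were higher and 10 lower, with a median of 1.21, where 80.2% of 10494 genes were called, 42.4% higher and 37.8% lower (median 0.12). Mrpl30 stood at 423.5 to 589.4 CPM among Sall1 HA libraries, against 32.3, 41.9, 41.8 and 32.0 CPM in Sall1 SortIP, which is 3.93 ± 0.21 on the log2 scale (adjusted p = 5.61e-19). Mrpl20 (2.77 ± 0.19) and Mrpl14 (2.74 ± 0.19) followed, and Mrpl1 fell by 2.76 ± 0.39 (adjusted p = 4.48e-08). In Cx3cr1 HA against titled SortIP 35 of 73 were higher and 13 lower, with a median of 0.50, where 70.1% of 8198 genes were called, 32.6% higher and 37.5% lower (median -0.12). Without scaling the counts were 25 higher and 15 lower. Mrpl30 had 201.9, 357.9, 277.6 and 324.7 CPM in Cx3cr1 HA, against 54.3, 50.9, 52.0 and 43.8 CPM in titled SortIP (2.75 ± 0.20, adjusted p = 2.75e-10), and Mrpl54 (2.24 ± 0.21) and Mrpl14 (2.11 ± 0.21) were next. Mrpl1 had 0, 0, 2 and 0 counts in Cx3cr1 HA, against 22.1 to 25.8 CPM in titled SortIP, so it was lower, and no fold is given on so few counts. With the length correction and the mouse as a block, 34 members were higher and 17 lower in the Sall1 line, and 26 and 17 in the Cx3cr1 line. By description, the Cx3cr1 median was 0.41, and 26 of the 35 higher calls and 10 of the 13 lower calls were kept. The share of all genes called by description is not given here. These HA libraries are the ones also set against IgG above.

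Within sorted microglia little moved. In Sall1 SortIP against Sall1 Sort 5 of 75 members were higher and 2 lower (median 0.11), where 10.5% of 8603 genes were called, 5.45% higher and 5.08% lower. The higher count was near the share over all genes. Mrpl3, a homolog of a bacterial large subunit protein, had 66.5, 53.3, 73.5 and 52.0 CPM in Sall1 SortIP, against 46.0, 42.3, 37.8 and 26.4 CPM in Sall1 Sort, without overlap (0.85 ± 0.22, adjusted p = 0.0152). Mrpl43 differed by 0.61 ± 0.17 and Mrpl44 by 0.94 ± 0.27 (adjusted p = 0.0243 and 0.0296). Mrps24 fell, with 72.2, 81.6, 72.4 and 40.0 CPM in SortIP, against 107.7, 129.2, 123.8 and 110.5 CPM in Sort (-0.62 ± 0.19, adjusted p = 0.0349). Where leaving out 1 library ended one of these calls, the log2 fold change was 0.75 for Mrpl3, 0.47 to 0.61 for Mrpl43, 0.69 to 0.94 for Mrpl44 and -0.63 to -0.51 for Mrps24, with 3 libraries against 4. Leaving out 1 library left 1 to 5 members higher and 0 or 1 lower. The number higher was 2 without SortIP replicate 7 or 17 or Sort replicate 7, 17 or 21, and 1 without SortIP replicate 9. The number lower was 0 without SortIP replicate 7 or 17 or Sort replicate 9 or 17. Without scaling 1 was higher and 2 lower.

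In titled SortIP against titled Sort of the Cx3cr1 line 1 of 74 members was higher and 4 lower (median -0.18), where 12.8% of 8704 genes were called, 6.36% higher and 6.45% lower. The lower count was near the share over all genes. By description, which swaps the groups, 4 were higher and 1 lower. Mrps34, a mitochondrial addition to the small subunit, had 47.8, 69.6, 52.0 and 66.5 CPM in titled SortIP, against 95.0, 92.3, 90.7 and 93.0 CPM in titled Sort, with no overlap (-0.80 ± 0.17, adjusted p = 0.00549). Mrps15, a homolog of a bacterial small subunit protein, had 119.4, 112.5, 115.5 and 98.6 CPM, against 71.8, 68.0, 62.3 and 47.2 CPM, again with no overlap (0.71 ± 0.17, adjusted p = 0.0103). Mrpl12 (-0.56 ± 0.16) and Mrps28 (-0.87 ± 0.26) had adjusted p of 0.0253 and 0.0352. With the mouse as a block Mrps28 was no longer called (adjusted p = 0.0523). Without titled SortIP replicate 1 or 4 or titled Sort replicate 1 or 4 a single member was called lower, and without titled Sort replicate 3 there were 2. Without scaling 2 were higher and 1 lower. Mrps15 lay at 66.5 to 92.0 CPM in Sall1 SortIP and 93.0 to 132.8 CPM in Sall1 Sort, so its levels in the Cx3cr1 line by description had the same order as in the Sall1 line, and by title the opposite one. The microglial marker sums given above had the same property. Over the 78 members, mean RPKM in Sall1 SortIP had a rank correlation of 0.978 with titled Sort and 0.958 with titled SortIP. That of Sall1 Sort was 0.961 with titled Sort and 0.989 with titled SortIP.

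**Figure D5:**
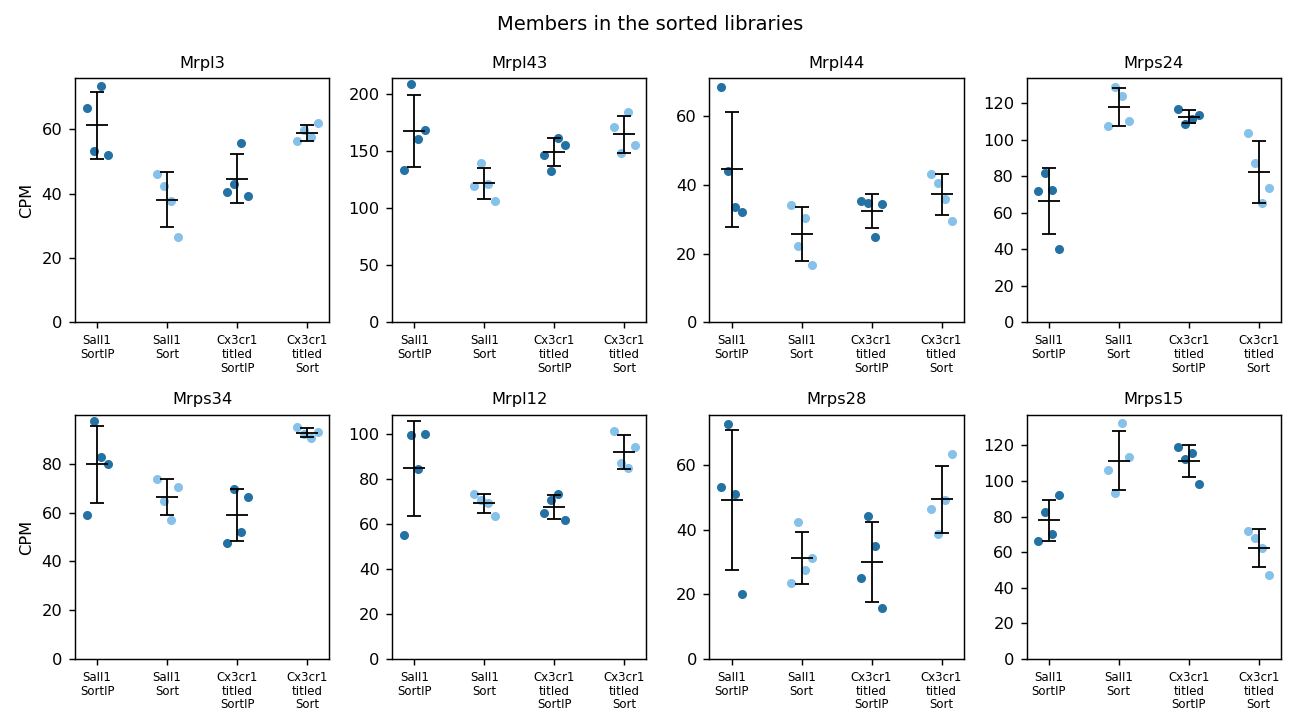
CPM of 8 members in the 16 sorted libraries (dots, darker for SortIP and lighter for Sort), with the mean and SD of each group of 4 (bars). Mrps15 and Mrps24 are lower in Sall1 SortIP than in Sall1 Sort and higher in titled SortIP than in titled Sort of the Cx3cr1 line, where Mrps34 is lower in titled SortIP.

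Between lines, Sall1 SortIP exceeded titled SortIP in 3 of 74 members, near the share over all genes, and was lower in 0 (edgeR, 12 and 1 at an unadjusted p under 0.05). Of 8552 genes 10.7% were called, 5.71% higher and 5.04% lower. The 3 were Mrpl46 (0.73 ± 0.21), Mrps28 (1.03 ± 0.31) and Mrps34 (0.64 ± 0.21), with adjusted p of 0.0302, 0.0431 and 0.0486. By description, from mouse sums or without scaling 0 were called higher, and likewise without Sall1 SortIP replicate 9 or 17 or titled SortIP replicate 1 or 4. Sall1 Sort exceeded titled Sort in 2 of 74 and was lower in 9, where 23.9% of 8688 genes were called, 11.9% higher and 12% lower. The lower count was thus near the share over all genes. Mrps15 was higher (0.72 ± 0.17, adjusted p = 0.00302), and Mrpl3 (-0.74 ± 0.19), Mrps34 (-0.60 ± 0.15) and Mrpl43 (-0.54 ± 0.14) were lower (adjusted p = 0.00611, 0.00638 and 0.00751). By description and from mouse sums 0 members were called in either direction. Without scaling 5 were higher and 4 lower, and without titled Sort replicate 1 it was 4 and 4.

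The other genes of mitochondrial translation were called in both directions, and their counts stand beside shares over all genes of 35.2% higher and 36.1% lower in Sall1 HA against IgG and 28.6% and 36% in Cx3cr1 HA against IgG. Of the other ribosomal proteins of mitochondria with names outside the Mrpl and Mrps series, 4 of 5 were higher and 1 lower in Sall1 HA against IgG (median 1.18), and 3 of 4 were higher in Cx3cr1 HA against IgG. Chchd1, of the small subunit, was higher in both lines, by 2.30 ± 0.20 and 1.37 ± 0.26, and Ptcd3, a pentatricopeptide repeat protein of the same subunit, was lower in the Sall1 line (-3.32 ± 0.64). Of 12 translation factors tested 2 were higher and 5 lower in Sall1 HA (median -0.35), and of 10 tested 1 was higher and 4 lower in Cx3cr1 HA (median -0.58). Gfm1, the elongation factor that moves the ribosome along the mRNA, was lower in both lines (-1.93 ± 0.28 and -2.34 ± 0.43), while Mrrf, which recycles the ribosome, was higher in Sall1 HA (1.18 ± 0.27). The shares of translation factors called lower were near those over all genes. Among assembly factors 5 were higher and 5 lower of 16 in Sall1 HA, and 4 higher and 4 lower of 15 in Cx3cr1 HA, also near the shares over all genes. Of the mitochondrial aminoacyl-tRNA synthetases, which load tRNAs with amino acids, 1 of 15 was higher and 7 lower in Sall1 HA (median -0.75), and 0 of 12 were higher and 4 lower in Cx3cr1 HA (median -0.79), where the lower count was near the share over all genes. Iars2, the isoleucine enzyme, was lower in both (-2.82 ± 0.26 and -2.39 ± 0.34). Of 7 genes of mitochondrial DNA expression 1 was higher and 3 lower in Sall1 HA, where Tfam, which packages the DNA, was higher (0.94 ± 0.20) and Polrmt, the RNA polymerase, lower (-2.61 ± 0.23). Without scaling, the median of the assembly factors in Sall1 HA was -0.06 in place of 0.35. The other list medians given here kept their sign without scaling. All list counts and medians in this paragraph are without the length correction. Over all tested genes fold changes fell with exon length (rank correlation -0.527 in the Sall1 line and -0.368 in the Cx3cr1 line). The lengths of the listed genes are not given here, so the lists are not read as differing from the members apart from length.

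In the same test of the difference between lines, 58 of 78 nuclear-encoded subunits of the respiratory chain had a higher HA enrichment in the Sall1 line and 1 a lower one (median 1.04), against the 27 and 0 of 77 members. They summed to 4.86 ± 0.235% of counts in Sall1 HA, against 2.42 ± 0.212% in Sall1 IgG, and to 2.11 ± 0.104% in Cx3cr1 HA, against 2.29 ± 0.163% in Cx3cr1 IgG. Over all 12308 genes the shares were 18.5% higher and 13.7% lower, with a median of 0.15. Of the cytosolic ribosomal protein mRNAs 2 of 73 were higher and 12 lower (median -0.38), the lower count being near the share over all genes. They summed to 2.35 ± 0.0396% in Sall1 HA, against 1.47 ± 0.191% in Sall1 IgG, and to 2.84 ± 0.217% in Cx3cr1 HA, against 1.36 ± 0.0612% in Cx3cr1 IgG. The signs of both medians were the same under each scaling tried. Under these, 52 to 61 respiratory chain genes were higher and 12 to 15 cytosolic ribosomal protein genes lower. These ranges do not include the length correction. With that correction and the mouse as a block, 6 of the 27 members kept their call. The corrected counts of the respiratory chain and cytosolic ribosomal protein genes are not given here. Whether these lists differ from the members after the correction is therefore not read from these values. Among pathway genes outside the member list, Dap3, a GTP-binding protein of the small subunit (1.21 ± 0.25), Mpv17l2, an assembly factor (1.08 ± 0.34), and Fars2, the phenylalanine enzyme (1.42 ± 0.34), had a higher enrichment in the Sall1 line, and Polrmt a lower one (-1.02 ± 0.37).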

How the data were processed

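The deposited table gives exon counts of reads, not normalized by the authors, with 24411 genes and 32 libraries. The tools named per the submitters' processing notes are HISAT 0.1.5, bcl2fastq and HOMER, and the build is mm9. The treatment of multiply mapped reads and the strand setting are not given in the sources used here, which leaves genes with close copies or overlapping neighbours uncertain. Lengths are those of the table.

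The member rule and the gene lists were chosen with earlier results of these data known. Tests were made with edgeR 4.0.16 in R 4.3.3 (robust quasi-likelihood, TMM scaling, filterByExpr with a minimum count of 10), each on the compared groups alone. The difference in HA enrichment was an interaction term. Adjusted p is Benjamini-Hochberg over all genes tested, calls are below 0.05, and fold changes are log2 with the SE from the F statistic. CPM uses all gene counts, and RPKM divides it by exon length in units of 1000 bases. The fold changes include TMM scaling and CPM does not, so a fold change can differ from the ratio of CPM values. The scripts were tested on simulated data. The text names, per comparison, the 3 members of smallest adjusted p on the side of the members' median and the called one of smallest adjusted p on the other side, plus members with set roles. Others (Mrps21, Mrps35, and the lists of genes lower in both lines) were chosen after their values were seen.

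Alternatives were median-ratio size factors, no scaling, no low-count filter, DESeq2 1.42.0, all 8 groups in one fit, the mouse as a block, a correction for length (lowess trend per library as an offset), leaving out each library, sorted Cx3cr1 groups by description, and sums of both sorted libraries per mouse. Replicates are separate mice. All 48 pairs within groups differed by more than sampling noise, with chi-square over its degrees of freedom from 1.58 to 22.5. Numbers pair libraries because each brain was divided, per the series' design. Deviations of libraries of the same mouse had a median correlation of 0.0383 in the Sall1 line and 0.0535 in the Cx3cr1 line, against -0.0168 and -0.0119 between mice. Reads had no molecular identifiers.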

Additional observations from a re-analysis of the deposited data

Results flagged for a closer look

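In the test of the difference in HA enrichment between the lines, 27 of 77 members had a higher enrichment in the Sall1 line, where 18.5% of all genes did. With the length correction and the mouse as a block 6 of the 27 kept that call. The 3 with the smallest adjusted p (edgeR) were Mrps25, with a difference of 1.29 on the log2 scale (adjusted p = 0.000215), Mrps6 with 1.38 (adjusted p = 0.000449) and Mrpl28 with 1.22 (adjusted p = 0.000633). Each was higher in 4 of 4 Sall1 HA libraries than in any Sall1 IgG library and overlapped with IgG in the Cx3cr1 line. Since the 3 were chosen by this test on the same libraries, this is a description only.

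Single libraries stood apart from the other 3 of their group for 8 of 240 combinations of a group with a named member or with the sum over members, by the criterion of Dixon's test at the 95% level. Chance gives about 1 in 20. In Cx3cr1 HA, replicate 3 had 4.59 CPM of Mrpl1 (2 counts), against 0 in the others, and with the others all at 0 any count would have met the criterion. In the same group replicate 4 had 181.6 CPM of Mrps18a, with 146.8 CPM the next highest. In Cx3cr1 IgG, replicate 2 had 74.5 CPM of Mrpl30 (next 115.9 CPM) and 104.0 CPM of Mrpl54 (next 81.6 CPM), and replicate 4 had 138.0 CPM of Mrps12 (next 178.9 CPM). In titled SortIP, replicate 3 had 24.9 CPM of Mrpl44 (next 34.4 CPM). In Sall1 SortIP, replicate 17 had 26.5 CPM of Mrps18c (next 13.6 CPM). In Sall1 IgG, replicate 7 had 24.1 CPM of Mrps27 (next 53.8 CPM), and this library was the one with 704183 counts.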

How the results depend on the processing

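The shallowest library, Sall1 SortIP replicate 21, held 249881 counts, and the Cx3cr1 HA libraries 286418 to 574671. Of the values of single members under alternatives, 744 kept direction and side of the threshold, 98 kept direction and lost the call, 5 gained it and 20 reversed. The cause of a change was not tested except where fewer libraries entered. The replicate block moved no member count by over 1.5 times (57 higher and 10 lower in Sall1 HA against IgG, 31 and 7 in Cx3cr1) and, among named members, ended only the call of Mrps28 in titled SortIP against titled Sort (adjusted p = 0.0523). Blocks between lines were not possible, since the mice differ.

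With the length correction and the replicate block, Sall1 HA against IgG had 26 higher, 20 lower and a median of 0.13, Cx3cr1 HA against IgG 19, 18 and -0.087, and the interaction 6, 1 and 0.17. Sall1 HA against SortIP had 34, 17 and 0.30, and Cx3cr1 HA against titled SortIP 26, 17 and 0.21. With the length correction alone Sall1 HA against Cx3cr1 HA had 22, 5 and 0.32, and SortIP between lines 0, 1 and 0.092. Reversed in Sall1 HA against IgG were Mrpl10 (-0.34), Mrpl12 (-0.18), Mrps12 (-0.70), Mrps18a (-0.20) and Mrps18b (-0.17), and in Cx3cr1 HA against IgG Mrps12 (-0.74) and Mrps18a (-0.26).

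Without scaling, medians were 0.75 in Sall1 HA against IgG, 0.023 in Cx3cr1 HA against IgG (20 higher, 18 lower), 0.80 between HA groups, 1.06 in Sall1 HA against SortIP and 0.26 in Cx3cr1 HA against titled SortIP. In Sall1 SortIP against Sort 1 was higher (median -0.029), in titled SortIP against titled Sort 2 and 1 (-0.052), in SortIP between lines 0 and 1 (0.020), and in Sort between lines 5 and 4 (-0.011). Mrpl10 reversed to -0.19 in the Sall1 line and Mrps12 to -0.35 in the Cx3cr1 line.

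With all 8 groups in one fit, Sall1 HA against IgG had a median of 1.04, Cx3cr1 HA against IgG 21 higher and 24 lower (0.015, Mrps12 -0.34), the interaction 48 higher (0.95) and the HA groups 56 higher (0.99). Medians were 1.32 in Sall1 HA against SortIP and 0.42 in Cx3cr1 HA against titled SortIP. Sall1 SortIP against Sort had 2 higher and 1 lower, titled SortIP against titled Sort 1 lower, SortIP between lines 0 higher and Sort between lines 3 lower. The shares of all genes called in the one fit of all 8 groups are not given here, so its counts are not read against other genes. Without a low-count filter, medians were 0.34 in Cx3cr1 HA against IgG (Mrps12 -0.011), 0.74 for the interaction, 0.74 between HA groups, 1.35 in Sall1 HA against SortIP and 0.39 in Cx3cr1 HA against titled SortIP, and SortIP between lines had 1 higher. With median-ratio factors the interaction had 1 lower (median 0.54) and Sall1 HA against SortIP a median of 1.36. DESeq2 gave 1 lower for the interaction, a median of 1.36 in Sall1 HA against SortIP, 1 lower in Sall1 SortIP against Sort and 5 lower in Sort between lines.

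By description, Cx3cr1 HA against SortIP had a median of 0.41 and SortIP against Sort 4 higher and 1 lower (0.18), with Mrps34 0.80, Mrpl12 0.56, Mrps28 0.87 and Mrps15 -0.71. SortIP between lines had 0 higher (0.059, Mrps34 -0.15) and Sort between lines 0 and 0 (0.050, Mrps34 0.20). With sums per mouse in place of the titled groups, SortIP between lines had 0 higher (0.051) and Sort between lines 0 and 0 (0.051, Mrps34 0.0063).

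Leaving out single libraries gave, in Cx3cr1 HA against IgG, 5 to 11 lower and medians of 0.40 to 0.52. Mrps12 there ranged from -0.056 (without HA replicate 2) to 0.15, and was -0.051 without IgG replicate 4. The interaction had 0 to 1 lower, the HA groups 0 to 1 lower, Sall1 HA against SortIP medians of 1.12 to 1.19 and Cx3cr1 HA against titled SortIP 0.42 to 0.61. Sall1 SortIP against Sort had 1 to 5 higher and 0 to 1 lower, titled SortIP against titled Sort 1 to 5 lower, SortIP between lines 0 to 4 higher (medians 0.10 to 0.22) and Sort between lines 2 to 4 higher and 4 to 7 lower.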

Other observations

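Of the members that were not tested in every comparison, Mrpl50, a mitochondrial addition to the large subunit, had 12, 2, 15 and 27 counts in Sall1 HA, against 19, 53, 56 and 24 in Sall1 IgG, and 1, 0, 3 and 1 counts in Cx3cr1 HA, against 41, 7, 70 and 45 in Cx3cr1 IgG. It was lower in Sall1 HA (log2 fold change -1.18, edgeR adjusted p = 0.0195) and below the low-count filter in the Cx3cr1 comparison. Mrpl23, a homolog of a bacterial large subunit protein, had 3, 1, 1 and 5 counts in Cx3cr1 HA, against 5, 9, 8 and 16 in Cx3cr1 IgG. Mrpl21, of the same kind, had 15 and 16 counts in titled SortIP replicates 1 and 4, against 2 and 5 in replicates 2 and 3. Mrps36 had at most 17 counts in any library.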
